A study of Mus musculus with 33 samples.

Results

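The comparison set the ovaries of cycling mice at proestrus against anestrus ovaries labelled as knockout, by sequencing of polyadenylated RNA. It used 8 of the 33 libraries of a mouse study of follicle-stimulating hormone (FSH) and the estrous cycle. The 4 proestrus libraries carry the genotype label WT and the stage label PE, which in usual usage stands for proestrus. The 4 libraries they were compared with carry the stage label KO (anestrus) and the title term WT_KO, while their genotype label also reads WT. The series names Fshb(-/-) mice as its knockouts, and the labels of these 4 libraries name no allele. All 8 are labelled ovary. The labels give no age, strain or method of staging, and do not say whether each library came from a separate animal, so p-values measure the spread between libraries, which may be technical in part. Of 54347 gene identifiers, the 16944 with enough counts in the 16 libraries of the stage experiment were tested.

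FSH is a pituitary hormone that acts through its receptor on the granulosa cells of ovarian follicles. It drives follicles past the early antral stage, raises aromatase, the enzyme that makes estradiol, and raises the subunits of inhibin and activin. At proestrus the largest follicles make their peak of estradiol, and a surge of luteinizing hormone (LH) then triggers ovulation and turns the follicle wall into a corpus luteum. Mice without the FSH beta subunit form small follicles but do not ovulate, so they lack fresh corpora lutea.

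Total counts ran from 10.1 M to 14.3 M in the 8 libraries. Fshb, the gene of the FSH beta subunit, gave 93, 114, 93 and 90 counts in KO (anestrus) replicates 1 to 4 and 0, 0, 51 and 26 in PE replicates 1 to 4. Thus PE replicates 1 and 2 held none, PE replicates 3 and 4 held some, and every KO (anestrus) library held more than any PE library. The difference did not pass the test (log2 fold change -2.23 ± 1.15 (SE), adjusted p = 0.15). The labels do not say which part of Fshb is deleted, so a count over the whole gene does not settle the genotype. In experiment 1 of the series, described further on, Fshb gave 1, 1 and 0 counts in libraries labelled WT. It gave 68, 79 and 82 in those labelled Fshb(-/-). PE replicates 1 and 2 were thus like those WT libraries, while PE replicates 3 and 4 held more. Whether the PE libraries differed in genotype was not tested, and the groups are named throughout as the libraries are labelled. Levels below are counts per 1 M library counts (CPM), scaled by the trimmed mean of M-values, each log2 fold change is PE minus KO (anestrus), and a gene is called at an adjusted p under 0.05 in edgeR's quasi-likelihood test.

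At that threshold 5724 genes differed (33.8% of those tested), 2969 higher at PE (17.5%) and 2755 lower (16.3%). With a change of at least 2-fold besides, 1857 genes were higher (11.0%) and 882 lower (5.21%). Marker lists for ovarian cell types and processes are read against those shares. The median log2 fold change over all genes tested was 0.01. The PE libraries were all rich in oviduct transcripts and the KO (anestrus) libraries poor in them. Of the 8 libraries with the other stage labels, DE and E, 4 were poor in them, and 1331 of the 2969 genes higher at PE (44.8%) had their 4 lowest DE and E values in those 4 libraries, against 2312 of all 16944 genes (13.6%). The part of oviduct tissue in the increases and in the decreases at PE was not tested.

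**Figure D1:**
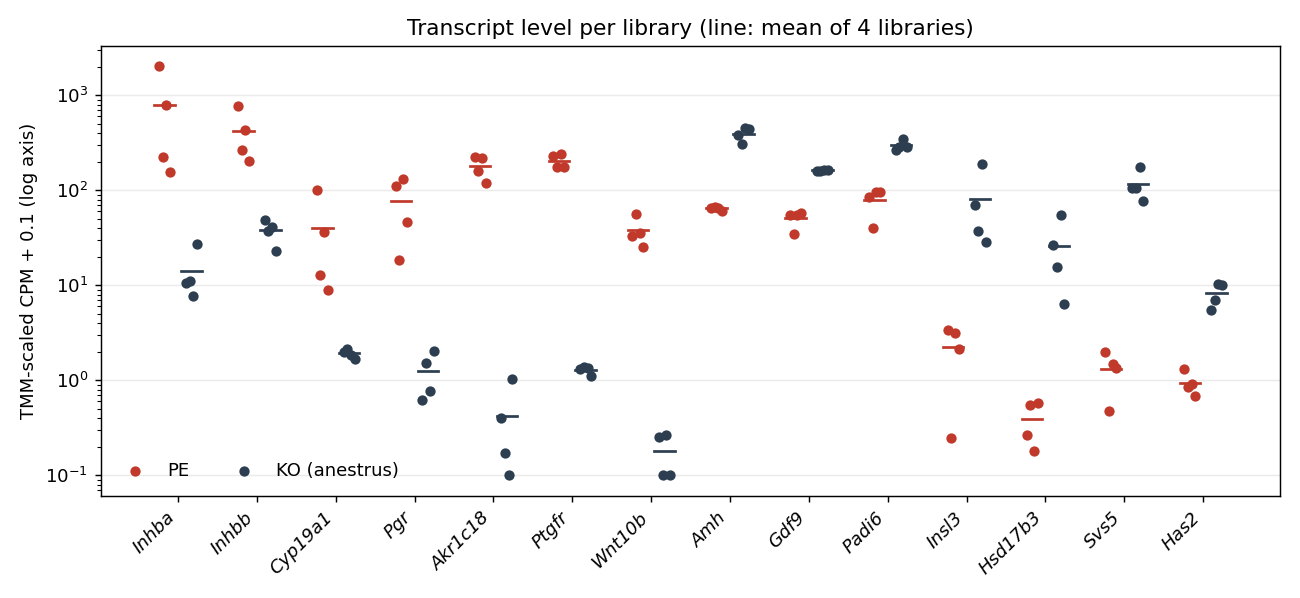
TMM-scaled CPM plus 0.1 on a log axis for 14 genes in the 4 PE and 4 KO (anestrus) libraries; each point is a library and each line the mean of 4. The PE points lie above the KO (anestrus) points for the 7 genes on the left and below them for the 7 on the right, with no overlap in any of the 14.

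The granulosa cell hormones separated the groups in both directions. Inhba, which encodes the beta A subunit shared by inhibin A and activin A (chr13:16011851-16031621, GRCm38), stood at 2017, 224, 799.5 and 155 CPM in PE replicates 1 to 4 and at 10.4, 11.1, 7.67 and 27.1 CPM in KO (anestrus) replicates 1 to 4. The highest PE library exceeded the lowest by a wide margin, yet the groups did not overlap (log2 fold change 5.83 ± 0.87 (SE), adjusted p = 0.00054). Inhbb, the beta B subunit (chr1:119415465-119422248), stood at 770.4, 264, 432 and 204 CPM at PE and 49.1, 37.5, 41.4 and 23.2 CPM in KO (anestrus), again highest in PE replicate 1 (log2 fold change 3.46 ± 0.44 (SE), adjusted p = 0.00016). Inha, the alpha subunit that turns a beta subunit into inhibin, did not pass the test, at 1336, 626, 1078 and 622 CPM at PE and 921, 883, 693 and 961 CPM in KO (anestrus) (log2 fold change 0.08 ± 0.29 (SE), adjusted p = 0.85). Cyp19a1, the gene of aromatase (chr9:54165937-54268110), stood at 101, 12.6, 36.1 and 8.9 CPM at PE and 1.89, 2.06, 1.75 and 1.58 CPM in KO (anestrus). It was higher in every PE library, and PE replicates 1 and 3 again led replicates 2 and 4 (log2 fold change 4.43 ± 0.85 (SE), adjusted p = 0.0025).

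Amh (chr10:80805243-80807648), which encodes anti-Müllerian hormone and is made by granulosa cells of small growing follicles, went the other way. Its level was 64.6, 67.3, 65.5 and 60.7 CPM in the 4 PE libraries and 385, 309, 453 and 438 CPM in the 4 KO (anestrus) libraries (log2 fold change -2.62 ± 0.33 (SE), adjusted p = 0.00015). The PE values lay close together, unlike those of Inhba and Cyp19a1. Amhr2, the type II receptor that binds this hormone, was lower too, at 73, 70, 81.4 and 75.2 CPM against 206, 207, 191 and 199 CPM (log2 fold change -1.42 ± 0.23 (SE), adjusted p = 0.00079). Sgk1, a kinase gene that FSH raises in granulosa cells, stood at 199, 294, 156 and 111 CPM at PE and 35.1, 35.3, 34.4 and 31.6 CPM in KO (anestrus) (log2 fold change 2.48 ± 0.39 (SE), adjusted p = 0.0007). Sgk1 and Amhr2 were picked after their values were seen. The gonadotropin receptors did not pass the test. Fshr, the FSH receptor, stood at 32.1, 13.8, 35.1 and 7.74 CPM against 47.5, 43.2, 44.4 and 44.6 CPM (log2 fold change -1.02 ± 0.44 (SE), adjusted p = 0.088). Lhcgr, the LH receptor, stood at 290.5, 301, 314 and 56.2 CPM against 291, 367, 241 and 280.3 CPM, with PE replicate 4 far below the other PE libraries (log2 fold change -0.29 ± 0.61 (SE), adjusted p = 0.74). Over the 30 genes of the granulosa and FSH response list, the median log2 fold change was -0.30. Of them 6 were higher, a share near the 17.5% of all genes, and 8 lower, against 16.3%. Among those lower was Igf1r, the receptor of insulin-like growth factor 1, at 137, 149.9, 184 and 149 CPM against 305, 288, 338 and 299 CPM (log2 fold change -0.99 ± 0.15 (SE), adjusted p = 0.00053).

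The 250 bases before the start of 4 genes are shown because they belong to genes that separated the groups in each direction. They are from RefSeq on GRCm38.p6, plus strand, 5′ to 3′. Capitals mark TCAAGGTCA or its shorter form CAAGGTCA, letters bound by the orphan receptors NR5A1 and NR5A2, which act at granulosa cell genes. Inhba (chr13:16011601-16011850) had the largest log2 fold change of the granulosa hormones above, Sgk1 (chr10:21985854-21986103, 1 of 6 starts listed) and Amhr2 (chr15:102445117-102445366) moved in opposite directions, and Svs5 (chr2:164332515-164332764) encodes a seminal vesicle protein that was higher in KO (anestrus), as described further on.
Inhba: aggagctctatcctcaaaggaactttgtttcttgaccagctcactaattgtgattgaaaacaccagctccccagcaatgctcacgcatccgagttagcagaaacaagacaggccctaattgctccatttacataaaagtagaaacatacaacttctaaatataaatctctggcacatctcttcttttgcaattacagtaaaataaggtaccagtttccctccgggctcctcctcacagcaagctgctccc
Sgk1: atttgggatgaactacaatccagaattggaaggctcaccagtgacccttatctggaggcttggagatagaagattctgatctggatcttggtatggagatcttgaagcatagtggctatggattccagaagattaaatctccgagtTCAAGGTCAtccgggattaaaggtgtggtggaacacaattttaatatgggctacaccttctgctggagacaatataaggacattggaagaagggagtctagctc
Amhr2: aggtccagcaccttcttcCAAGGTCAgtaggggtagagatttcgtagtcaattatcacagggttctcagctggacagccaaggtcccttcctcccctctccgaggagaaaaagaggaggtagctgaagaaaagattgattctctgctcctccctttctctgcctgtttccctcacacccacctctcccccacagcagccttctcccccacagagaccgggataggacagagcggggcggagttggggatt
Svs5: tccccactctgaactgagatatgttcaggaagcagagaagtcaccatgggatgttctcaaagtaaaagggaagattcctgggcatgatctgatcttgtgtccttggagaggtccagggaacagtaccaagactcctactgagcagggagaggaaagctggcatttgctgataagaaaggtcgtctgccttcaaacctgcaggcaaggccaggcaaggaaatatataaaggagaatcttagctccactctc
The Sgk1 match lies 104 bases before the start and the Amhr2 match 232 bases before it, while the windows of Inhba and Svs5 held none of the motifs searched. TCAAGGTCA occurs before 2 of the 6 listed Sgk1 starts, and the window shown is among those 2. Counts per gene do not tell which start these ovaries used. Searched on both strands in 300 bases around the start of the 12344 tested genes with a promoter entry, TCAAGGTCA was present in 0.34% of all, in 0.463% of genes higher at PE and in 0.141% of genes lower at PE. CAAGGTCA, which each TCAAGGTCA holds, was present in 1.39%, 2.08% and 0.846%. TGACGTCA, the cyclic AMP response element, was present in 3.2%, 1.99% and 3.29%, TCACNCCAC, a sterol regulatory element, in 1.47%, 1.57% and 1.64%, and the palindromic estrogen response element in 0.0243%, 0% and 0.047%. These are counts of letters in a window and describe neither a bound site nor a cause.

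Genes of the corpus luteum were higher at PE. Of the 20 luteal cell genes, 11 were higher and none lower, against 17.5% and 16.3% of all genes, with a median log2 fold change of 0.83. Akr1c18, the 20-alpha-hydroxysteroid dehydrogenase that breaks down progesterone (chr13:4132615-4150654), stood at 222, 158, 217 and 120.2 CPM in the PE libraries and at 0.302, 0.0712, 0 and 0.931 CPM in the KO (anestrus) libraries. The gene was close to 0 in every KO (anestrus) library (log2 fold change 9.16 ± 1.72 (SE), adjusted p = 0.0021), and the call was lost with limma voom (adjusted p = 0.11). Ptgfr, the prostaglandin F2-alpha receptor through which the corpus luteum regresses (chr3:151796502-151837630), stood at 231, 176, 239.7 and 174 CPM against 1.21, 1.28, 1.25 and 1.02 CPM (log2 fold change 7.41 ± 1.07 (SE), adjusted p = 0.00044). Sfrp4, a secreted WNT inhibitor of luteal cells, stood at 701, 293, 283 and 224 CPM against 3.63, 6.76, 2.25 and 8.1 CPM, and PE replicate 1 was far above the rest (log2 fold change 6.18 ± 0.97 (SE), adjusted p = 0.00073). Onecut2, a transcription factor gene, stood at 31.7, 24.7, 30.0 and 18.5 CPM against 0.0755, 0, 0.0834 and 0.186 CPM (log2 fold change 8.18 ± 1.90 (SE), adjusted p = 0.0065, lost with limma voom at adjusted p = 0.14). In these whole-ovary samples, fewer cells of a type and less RNA per cell cannot be told apart, here and in all that follows. The mean log2(CPM + 1) over the luteal list, an index of the list's level, ran from 6.81 to 7.52 at PE and from 5.62 to 5.73 in KO (anestrus).

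Steroid enzymes split. Cyp11a1, which makes pregnenolone from cholesterol, stood at 2132, 3696, 1989.8 and 1044 CPM against 1212, 1370, 1171 and 967 CPM (log2 fold change 0.91 ± 0.34 (SE), adjusted p = 0.049). Its call rested on single libraries: it was lost on leaving out any library but PE replicate 4, with adjusted p up to 0.19, and the log2 fold change was 0.55 without PE replicate 2. Star, which carries cholesterol into mitochondria, stood at 146, 960.1, 178 and 133 CPM against 201, 217, 405 and 92.4 CPM and overlapped between groups (log2 fold change 0.63 ± 0.81 (SE), adjusted p = 0.58). The log2 fold change of Star was as low as -0.59 when single libraries were left out, so its direction was not stable. Cyp17a1, the androgen-making enzyme of theca cells, stood at 343, 2.71, 772 and 26.8 CPM at PE and 1016, 905, 998 and 621 CPM in KO (anestrus). The 4 PE libraries spread from a few CPM to near the KO (anestrus) level, and the difference did not pass the test (log2 fold change -1.63 ± 1.35 (SE), adjusted p = 0.37). Hsd11b2, which inactivates glucocorticoids, was lower, at 30.4, 11.6, 19.2 and 15.1 CPM against 76.1, 91.6, 86.4 and 91.4 CPM (log2 fold change -2.18 ± 0.38 (SE), adjusted p = 0.0015). Of 23 steroidogenesis genes tested, 7 were higher and 4 lower (Hsd3b6, Hsd11b2, Hsd17b3 and Hsd17b12), against 17.5% and 16.3% of all genes. The share lower was thus near that of all genes. Without KO (anestrus) replicate 1, without KO (anestrus) replicate 4 or without PE replicate 2, 4 were higher. Of 27 genes of cholesterol synthesis and uptake, none was higher and 1 lower (Insig1, a brake on cholesterol synthesis, log2 fold change -0.69 ± 0.23 (SE), adjusted p = 0.032). The Insig1 call was lost on leaving out any library but PE replicate 1 (adjusted p up to 0.089).

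Genes known from the testis and the male tract were higher in the KO (anestrus) ovaries. Hsd17b3, the testis enzyme that makes testosterone from androstenedione, stood at 0.163, 0.452, 0.0819 and 0.484 CPM at PE and 26.4, 15.5, 55.1 and 6.24 CPM in KO (anestrus), so all 4 PE libraries were under 1 CPM (log2 fold change -6.42 ± 0.86 (SE), adjusted p = 0.00025). Insl3, the insulin-like hormone of Leydig and theca cells, stood at 3.27, 0.151, 3.03 and 2.03 CPM against 70.2, 37.2, 192 and 28.2 CPM (log2 fold change -5.27 ± 0.85 (SE), adjusted p = 0.00088). For both genes KO (anestrus) replicate 3 was highest. Ptgds, a prostaglandin D synthase of Sertoli cells and other tissues, stood at 2.37, 2.41, 3.11 and 5.32 CPM against 73.9, 22, 311 and 30.1 CPM, with the same library highest (log2 fold change -5.06 ± 0.79 (SE), adjusted p = 0.00072, adjusted p = 0.061 with limma voom). Sox8, a relative of the testis factor SOX9, stood at 1.39, 1.05, 0.983 and 0.967 CPM against 7.86, 8.62, 8.42 and 7.82 CPM (log2 fold change -2.88 ± 0.22 (SE), adjusted p = 2e-06). Of 13 tested genes of the testis-type somatic list, 7 were lower at PE and 2 higher (Sox9, the Sertoli cell factor that other epithelia also make, and the growth factor gene Gdnf), with a median log2 fold change of -1.15; the number higher was 1 on leaving out any 1 library other than KO (anestrus) replicate 3. The index of this list ran from 1.63 to 1.82 at PE and from 2.44 to 3.13 in KO (anestrus).

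Svs6, Svs5 and Eppin, which lie near each other on chromosome 2, were among the 12 largest decreases at PE, ranked over called genes whose groups did not overlap and whose mean over the 8 libraries reached 5 CPM. Genes at lower levels, such as Sult1e1 described further on, are outside this ranking. Svs6 (chr2:164316751-164318453) and Svs5 (chr2:164332740-164334396) encode proteins of seminal vesicle fluid, and Eppin (chr2:164588343-164593594) encodes a protease inhibitor of the epididymis. Svs5 stood at 1.88, 0.376, 1.39 and 1.26 CPM in the PE libraries and 107, 105, 177 and 76.6 CPM in the KO (anestrus) libraries (log2 fold change -6.57 ± 0.48 (SE), adjusted p = 1.6e-06). Svs6 stood at 0.0817, 0.0753, 0.164 and 0 CPM against 12.8, 15, 19 and 11.6 CPM (log2 fold change -7.30 ± 0.76 (SE), adjusted p = 3.1e-05). Eppin stood at 0.98, 0.151, 0.983 and 0.29 CPM against 23.9, 24.2, 19.6 and 18.4 CPM (log2 fold change -5.14 ± 0.48 (SE), adjusted p = 1.1e-05). In each of the 3 the lowest KO (anestrus) library lay far above the highest PE library. The 6 of those 12 not yet named were L3mbtl4 (-5.08), a chromatin protein gene, Nxf3 (-4.63), an RNA export factor gene, Col6a5 (-4.21), a collagen VI chain, Slc24a2 (-4.16), a sodium-calcium exchanger, Cldn11 (-3.87), a tight junction protein of Sertoli cells and myelin, and C7 (-3.73), a complement component, each with its log2 fold change in brackets. Cldn11 had the smallest error of them, at 11.4, 8.66, 12.5 and 7.06 CPM against 130.3, 150.1, 154 and 149 CPM (SE 0.216, adjusted p = 1.4e-07).

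Of 18 theca and interstitial genes 3 were higher (Cyp11a1, Enpep and Thbd) and 7 lower, against 17.5% and 16.3% of all genes. The share higher was thus near that of all genes, and the call of Cyp11a1 rested on single libraries, as given above. Pdgfra, the platelet-derived growth factor receptor of stromal precursors, stood at 166, 275, 185 and 192 CPM against 804, 770.4, 997 and 772 CPM (log2 fold change -2.03 ± 0.17 (SE), adjusted p = 4.9e-06). Ptch1, the hedgehog receptor and target gene, stood at 179, 163, 183 and 175 CPM against 393, 352, 428 and 373 CPM (log2 fold change -1.14 ± 0.12 (SE), adjusted p = 3.5e-05). Tcf21, a transcription factor of mesenchymal progenitors, stood at 58.4, 41.5, 52.1 and 45.6 CPM against 110.1, 108, 105 and 124 CPM (log2 fold change -1.18 ± 0.19 (SE), adjusted p = 0.00069). Pdgfra, Ptch1 and Tcf21 were thus lower in every PE library than in any KO (anestrus) library.

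All 34 oocyte genes were lower at PE, against 16.3% of all genes tested, and the groups did not overlap for any of them, as for 20.7% of all genes in that direction. Their median log2 fold change was -1.69, with a range from -2.75 to -0.52, and between 31 and 34 were still called lower when single libraries were left out. Gdf9, the growth factor by which the oocyte acts on granulosa cells, stood at 55, 34.8, 55 and 58 CPM in the PE libraries and 159.7, 161, 166 and 164 CPM in the KO (anestrus) libraries (log2 fold change -1.68 ± 0.31 (SE), adjusted p = 0.002). Padi6, a protein of the oocyte's cytoplasmic lattices, stood at 85.1, 40.1, 96.4 and 95.3 CPM against 265, 289, 348 and 288 CPM (log2 fold change -1.91 ± 0.32 (SE), adjusted p = 0.0012). Both were lowest in PE replicate 2. Ooep (-1.87) and Nlrp5 (-1.86), of the subcortical maternal complex, and Ybx2 (-1.69), which stores mRNA, changed by like amounts. CPM are shares of a library's RNA, and other lists rose as this one was lower. The oocyte index ran from 3.22 to 3.86 at PE and from 5.10 to 5.38 in KO (anestrus). It was 4.48 in DE replicate 3 and 4.57, 4.23 and 4.11 in E replicates 1, 2 and 4, which were poor in oviduct transcripts. In those rich in them it was 2.79, 3.85 and 3.44 (DE replicates 1, 2 and 4) and 4.33 (E replicate 3). All of these lay below the KO (anestrus) range. The part of oviduct tissue in the lower oocyte share at PE was not tested.

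Cell cycle genes were lower as well. Of 36, 26 were lower and 2 higher (Cdkn1a and Ccnd1), with a median log2 fold change of -0.82, and 18 to 26 were lower when single libraries were left out. Ccnb1, the cyclin that starts mitosis, stood at 39.9, 37.2, 33 and 30.9 CPM against 90.9, 81.9, 78.2 and 90.6 CPM (log2 fold change -1.28 ± 0.28 (SE), adjusted p = 0.0044). Ccnb2 (-1.01) and Bub1b (-1.20), a spindle checkpoint kinase gene, were lower by similar amounts; oocytes also hold these transcripts. Cdkn1a, the cell cycle inhibitor p21, was higher, at 54, 57.9, 26.7 and 31.1 CPM against 7.1, 10.4, 9.42 and 13.7 CPM (log2 fold change 2.07 ± 0.46 (SE), adjusted p = 0.0053).

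**Figure D2:**
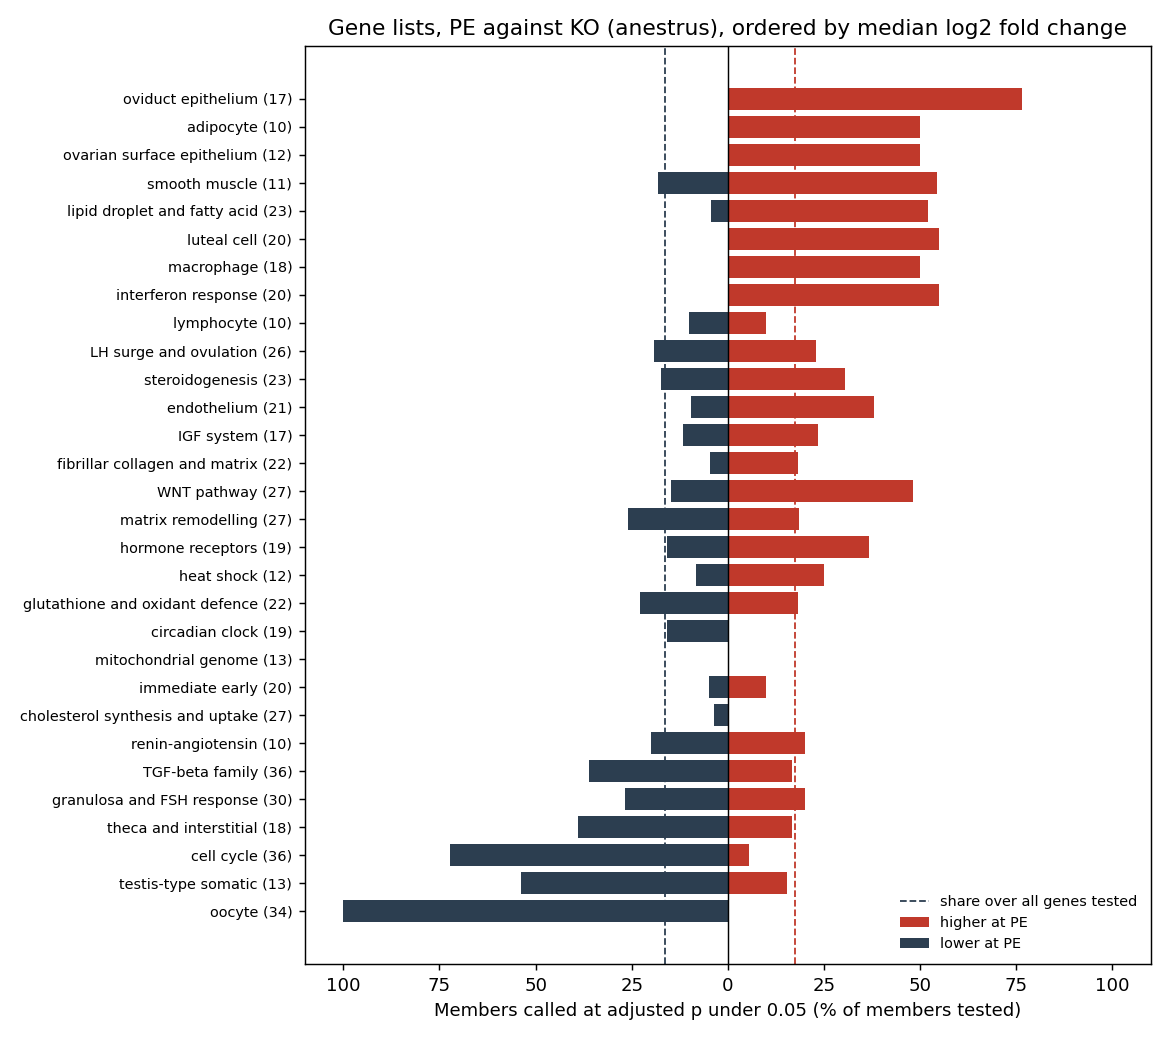
Share of each list's tested members called higher at PE (right) or lower (left), for the 30 lists with at least 10 members tested, with the number tested in brackets and dashed lines at the shares over all genes, 17.5% and 16.3%. The oocyte bar reaches 100% on the left and the oviduct epithelium bar is the longest on the right.

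Genes of the LH surge and ovulation did not move as 1 group. Of 26, 6 were higher and 5 lower (Has2, Sult1e1, Ctsl, Vcan and Ptger2), against 17.5% and 16.3% of all genes. Both shares were close to those of all genes, so the genes that follow are single calls. Without KO (anestrus) replicate 3, 3 were higher. Pgr, the progesterone receptor that the surge induces in granulosa cells (chr9:8899833-8968611), stood at 112, 18.4, 133 and 46.3 CPM in the PE libraries and 0.529, 1.42, 0.667 and 1.95 CPM in the KO (anestrus) libraries (log2 fold change 6.09 ± 1.26 (SE), adjusted p = 0.0036). Vegfa, the vascular growth factor, was higher at 60.3, 98.1, 58.6 and 62.7 CPM against 28.9, 28.1, 26.3 and 23.8 CPM (log2 fold change 1.38 ± 0.27 (SE), adjusted p = 0.0025), as was Cd44, a hyaluronan receptor (log2 fold change 1.88 ± 0.38 (SE), adjusted p = 0.0033). Has2, which makes the hyaluronan of the cumulus matrix, was lower, at 1.22, 0.753, 0.819 and 0.58 CPM against 5.44, 6.98, 10.3 and 10.1 CPM (log2 fold change -3.26 ± 0.40 (SE), adjusted p = 0.00012). Sult1e1, the estrogen sulfotransferase, was lower, at 0.0817, 0.151, 0 and 0.0967 CPM against 4.76, 9.26, 9.67 and 4 CPM (log2 fold change -6.22 ± 0.98 (SE), adjusted p = 0.00071). Pgr is also made by the oviduct, and Pgr and Cd44 moved with the oviduct markers over the DE and E libraries, as given further on.

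Growth factor and WNT genes changed in part. In the TGF-beta family, which includes the inhibins, activins and Amh, 6 of 36 genes were higher and 13 lower, against 17.5% and 16.3% of all genes. The share higher was thus near that of all genes. Tgfbr3, the inhibin co-receptor betaglycan, was lower at 165, 177, 141 and 137 CPM against 260.4, 275, 278 and 288 CPM (log2 fold change -0.83 ± 0.13 (SE), adjusted p = 0.00057). In the WNT pathway 13 of 27 were higher and 4 lower (Lrp5, Lrp6, Tcf7 and Wnt6), with 8 higher without KO (anestrus) replicate 2 and 7 without replicate 3. Wnt10b, a WNT ligand (chr15:98770712-98778150), stood at 33.2, 56.7, 35.8 and 25.5 CPM at PE and 0.151, 0, 0.167 and 0 CPM in KO (anestrus), where 2 libraries held no count (log2 fold change 8.72 ± 1.41 (SE), adjusted p = 0.00092, adjusted p = 0.061 with limma voom). Sfrp2, a secreted WNT modulator, stood at 33.9, 23, 25.7 and 22.3 CPM against 0.227, 0.783, 0.25 and 0.838 CPM (log2 fold change 5.63 ± 0.72 (SE), adjusted p = 0.00017). Dkk3 (2.26), of the dickkopf family, and Fzd4 (0.90), a WNT receptor, were higher too; Dkk3 moved with the oviduct markers over the DE and E libraries.

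In the insulin-like growth factor system 4 of 17 genes were higher (Stc1, Igfbp3, Igfbp4 and Igf2r) and 2 lower (Igf1r and Irs2, with 1 lower on leaving out any library other than PE replicate 4). Over all genes 17.5% were higher and 16.3% lower. The counts called in this system and in the renin-angiotensin system were close to those shares, so the genes that follow are single calls. Stc1, stanniocalcin 1, an inhibitor of the protease PAPP-A, stood at 183, 103, 80.4 and 219 CPM against 14.7, 17.3, 11.2 and 12.9 CPM (log2 fold change 3.38 ± 0.31 (SE), adjusted p = 1.1e-05). The binding proteins Igfbp4 (1.54 ± 0.22 (SE), adjusted p = 0.00041) and Igfbp3 (2.23 ± 0.52 (SE), adjusted p = 0.0068) were higher, and both moved with the oviduct markers over the DE and E libraries. In the renin-angiotensin system Ace, the angiotensin-converting enzyme, was lower at 52.8, 59.5, 44.3 and 54.1 CPM against 223, 203, 206 and 231 CPM (log2 fold change -2.03 ± 0.16 (SE), adjusted p = 3.8e-06). Agt, angiotensinogen, was lower (log2 fold change -1.68 ± 0.37 (SE), adjusted p = 0.0048) and Enpep, the aminopeptidase that degrades angiotensin II, higher (log2 fold change 1.02 ± 0.23 (SE), adjusted p = 0.0054). Of 10 genes of that system tested, 2 were lower and 2 higher (Enpep and Anpep), with 1 higher on leaving out any 1 library other than PE replicate 2. Among 19 hormone receptors 7 were higher, such as the thyroid hormone receptor Thrb (1.35 ± 0.26 (SE), adjusted p = 0.0022), and 3 lower, Esr2, Ptger2 and the vasopressin receptor Avpr1a (-3.08 ± 0.60 (SE), adjusted p = 0.0025).

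The shares of matrix genes called were close to those of all genes or below them, apart from a larger share of remodelling genes that were lower. Of 22 collagen and matrix genes 4 were higher and 1 lower, and of 27 remodelling genes 5 were higher and 7 lower, against 17.5% and 16.3% of all genes. The genes that follow are single calls. Fn1, fibronectin, stood at 545, 547, 500.1 and 290.2 CPM against 89.4, 108, 68.8 and 105 CPM (log2 fold change 2.34 ± 0.29 (SE), adjusted p = 0.00014), and Lum, a proteoglycan that binds collagen fibrils, at 372, 399.6, 351 and 366 CPM against 68.2, 88.6, 91.7 and 84.4 CPM (log2 fold change 2.16 ± 0.29 (SE), adjusted p = 0.00025). Col14a1, a collagen of fibril surfaces, was higher (log2 fold change 2.36 ± 0.39 (SE), adjusted p = 0.001); Col5a2 was the fourth of its list to be higher, and Col18a1 was lower, a call lost without KO (anestrus) replicate 2, 3 or 4 or PE replicate 3 or 4. The remodelling genes that were higher were Ctsb, Mmp14, Mmp3, Adamts4 and Loxl2; 2 or 3 were higher without PE replicate 1, PE replicate 2 or any KO (anestrus) replicate. Ctsb, a lysosomal protease, was higher at 1278, 1307, 1704 and 1483 CPM against 630.1, 688, 639 and 578 CPM (log2 fold change 1.19 ± 0.18 (SE), adjusted p = 0.00053), as was Mmp14, a membrane collagenase (0.63 ± 0.13 (SE), adjusted p = 0.004). Adamts5, an aggrecan-cleaving protease (-1.77 ± 0.32 (SE), adjusted p = 0.0018), and Plau, the urokinase plasminogen activator (-1.27 ± 0.23 (SE), adjusted p = 0.0018), were lower.

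Immune, vascular and lipid genes were more often higher than lower. Of 18 macrophage genes 9 were higher and none lower. Ctss, a lysosomal protease of antigen-presenting cells, stood at 53.8, 77.8, 172 and 145 CPM against 38.5, 27.4, 27 and 29.3 CPM (log2 fold change 1.88 ± 0.31 (SE), adjusted p = 0.0011), and Lyz2, lysozyme, at 136, 275, 578 and 533 CPM against 123, 91.3, 109.9 and 108 CPM (log2 fold change 1.82 ± 0.35 (SE), adjusted p = 0.0024). PE replicates 3 and 4 were the highest for both genes and PE replicate 1 was nearest to the KO (anestrus) libraries. Cd68 (1.56) and the complement gene C1qb (0.87) were higher too. Of 20 interferon response genes 11 were higher and none lower, such as Gbp2 (1.14 ± 0.23 (SE), adjusted p = 0.0033), Ifi44 (1.60 ± 0.36 (SE), adjusted p = 0.0052) and Usp18 (1.44 ± 0.34 (SE), adjusted p = 0.0067). That count was 6 without KO (anestrus) replicate 2 or PE replicate 3, 5 without KO (anestrus) replicate 4 and 3 without KO (anestrus) replicate 3. Of 21 endothelial genes 8 were higher and 2 lower (Vwf and Angpt2), with 5 higher without KO (anestrus) replicate 3 or PE replicate 2, and 1 lower without KO (anestrus) replicate 1, 3 or 4 or PE replicate 1, 2 or 4. Pecam1, an adhesion protein of endothelium (0.83 ± 0.13 (SE), adjusted p = 0.00063), and Aplnr, the apelin receptor (1.53 ± 0.23 (SE), adjusted p = 0.00048), were among those higher.

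Of 23 lipid droplet and fatty acid genes 12 were higher and 1 lower (Fabp3); 7 were higher without KO (anestrus) replicate 1 or 4 or PE replicate 4, and 5 without KO (anestrus) replicate 3. Plin2, the perilipin of steroid-making cells, stood at 119, 97.5, 108 and 173 CPM against 75.9, 77.3, 66.7 and 74.6 CPM (log2 fold change 0.76 ± 0.18 (SE), adjusted p = 0.0065). Plin4 stood at 54.3, 112, 138 and 161 CPM against 4.91, 32.9, 8.17 and 9.68 CPM (log2 fold change 3.05 ± 0.79 (SE), adjusted p = 0.011) and Dgat2, which makes triglyceride, at 57.6, 36.1, 49.7 and 178 CPM against 3.85, 29.3, 6.42 and 8.1 CPM (log2 fold change 2.74 ± 0.70 (SE), adjusted p = 0.011). For Plin4 and Dgat2, KO (anestrus) replicate 2 was the highest of its group and PE replicate 4 the highest of all. Fabp3, a fatty acid binding protein, was lower (log2 fold change -1.76 ± 0.35 (SE), adjusted p = 0.0029). Among adipocyte markers 5 of 10 were higher (Tshr, Lep, Plin1, Cidec and Adig) and none lower. Plin1 and Cidec are also among the lipid genes called higher, so these counts are not independent. The adipocyte index ran from 4.76 to 6.75 at PE and from 1.42 to 4.55 in KO (anestrus), where replicate 2 was highest. The summed level of the adipocyte markers was 422 to 2082 CPM at PE and 58.4 to 475 CPM in KO (anestrus). None of the 10 was at 0 in all KO (anestrus) libraries. The number of adipocyte genes called was 9 without KO (anestrus) replicate 2, 1 without KO (anestrus) replicate 3 or PE replicate 4, 2 without KO (anestrus) replicate 1 or 4 or PE replicate 3, and 3 without PE replicate 1. Lep, leptin, was among them (log2 fold change 4.06 ± 1.18 (SE), adjusted p = 0.018, 0.053 without KO (anestrus) replicate 3 and 0.056 without PE replicate 4 as adjusted p), as was Tshr, the thyrotropin receptor (log2 fold change 4.77 ± 1.32 (SE), adjusted p = 0.015). The part of adipocytes in the lipid result was not tested.

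Oviduct epithelium gave the widest separation of any list. Of its 17 tested genes 13 were higher and none lower, with a median log2 fold change of 4.90; 7 were higher without KO (anestrus) replicate 1 or 3. The summed level of the 18 genes was 3321 to 5908 CPM in the PE libraries and 31.3 to 75.1 CPM in the KO (anestrus) libraries, and none of the 18 was at 0 in all KO (anestrus) libraries. Ovgp1, oviductal glycoprotein, stood at 2973, 5335, 3739 and 4522 CPM against 1.36, 36.2, 5.83 and 35.6 CPM (log2 fold change 7.71 ± 2.61 (SE), adjusted p = 0.035). Its call was lost on leaving out any KO (anestrus) library, PE replicate 2 or PE replicate 4 (adjusted p up to 0.088) and with the replicate number as a block (0.065). The cilia genes Rsph1 (3.52 ± 0.69 (SE), adjusted p = 0.0027), Cfap126 (3.30 ± 0.77 (SE), adjusted p = 0.0068), Tekt1 (5.05 ± 1.21 (SE), adjusted p = 0.0074) and Ccdc39 (2.82 ± 0.69 (SE), adjusted p = 0.0081) were higher in all 4 PE libraries. Tekt1, a tubule protein of the ciliary axoneme, stood at 11.4, 11.2, 17.2 and 22.2 CPM against 0.453, 0.498, 0.5 and 0.372 CPM. Of 12 genes of the ovarian surface epithelium 6 were higher and none lower. Krt19, a keratin, stood at 147, 112, 135 and 169 CPM against 20.8, 20.2, 20.8 and 18.8 CPM (log2 fold change 2.81 ± 0.73 (SE), adjusted p = 0.011). Msln, mesothelin, stood at 30.2, 45.3, 27.4 and 48 CPM against 10.5, 14.1, 9.84 and 10.3 CPM (log2 fold change 1.75 ± 0.34 (SE), adjusted p = 0.0025). The index of this list followed the oviduct transcripts over the DE and E libraries. It was 5.45 to 5.98 in those rich in oviduct transcripts and 4.26 to 4.71 in those poor in them. The part of oviduct tissue in the surface epithelium result was not tested. Of 11 smooth muscle genes 6 were higher, such as Lmod1 (1.12 ± 0.27 (SE), adjusted p = 0.0082), and 2 lower, Synm and the coactivator Myocd (-0.95 ± 0.18 (SE), adjusted p = 0.0023); 2 were higher without KO (anestrus) replicate 1, 2 or 3, and 3 without PE replicate 1 or 3.

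The 12 largest increases at PE, ranked by the same rule, held the oviduct gene Ovgp1 as well as the luteal genes Akr1c18, Onecut2 and Ptgfr and the ligand gene Wnt10b. Dcpp3, a secreted protein of the oviduct and salivary gland, held 2331 counts in the 4 PE libraries and 3 in the 4 KO (anestrus) libraries, a ratio of 829 with a 95% exact counting interval of 283 to 4021. Entpd3, a nucleotidase gene, held 803 and 2 counts (ratio 428, interval 118 to 3542). Cyp26a1, which degrades retinoic acid, held 1007 and 3 (ratio 358, interval 122 to 1739). These intervals pool the libraries and leave out the spread between them, and PE replicate 2 held 1745 of the Dcpp3 counts. In edgeR's test, which includes that spread, Dcpp3 had a log2 fold change of 9.34 ± 2.41 (SE), adjusted p = 0.011. Entpd3 had 8.38 ± 2.30 (SE), adjusted p = 0.014, and Cyp26a1 8.24 ± 1.87 (SE), adjusted p = 0.0057. A2ml1 (8.78 ± 2.70 (SE), adjusted p = 0.023) and Serpina1e (7.68 ± 2.54 (SE), adjusted p = 0.032), both protease inhibitor genes, lost the call on leaving out any 1 of the KO (anestrus) libraries, with adjusted p up to 0.065 and 0.081, and Serpina1e also without PE replicate 4 (0.054) and with limma voom (0.072). Ugt1a1 (8.33 ± 2.28 (SE), adjusted p = 0.014), a glucuronidation enzyme, and Gcnt3 (7.58 ± 2.16 (SE), adjusted p = 0.017), a mucin glycosyltransferase, complete the 12; Gcnt3 lost the call without KO (anestrus) replicate 1 (adjusted p = 0.0504). Dcpp3, Serpina1e and Ugt1a1 share sequence or exons with near-identical family members, so the split of reads between copies is uncertain. Of the 12, 8 (Dcpp3, A2ml1, Entpd3, Ugt1a1, Cyp26a1, Ovgp1, Serpina1e and Gcnt3) moved with the oviduct markers over the DE and E libraries. A2ml1, for example, stood at 409, 912, 0.075 and 259 CPM in DE replicates 1 to 4 and 0.0877, 0.255, 1027 and 0.0926 CPM in E replicates 1 to 4, near 0 in DE replicate 3 and E replicates 1, 2 and 4.

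**Figure D3:**
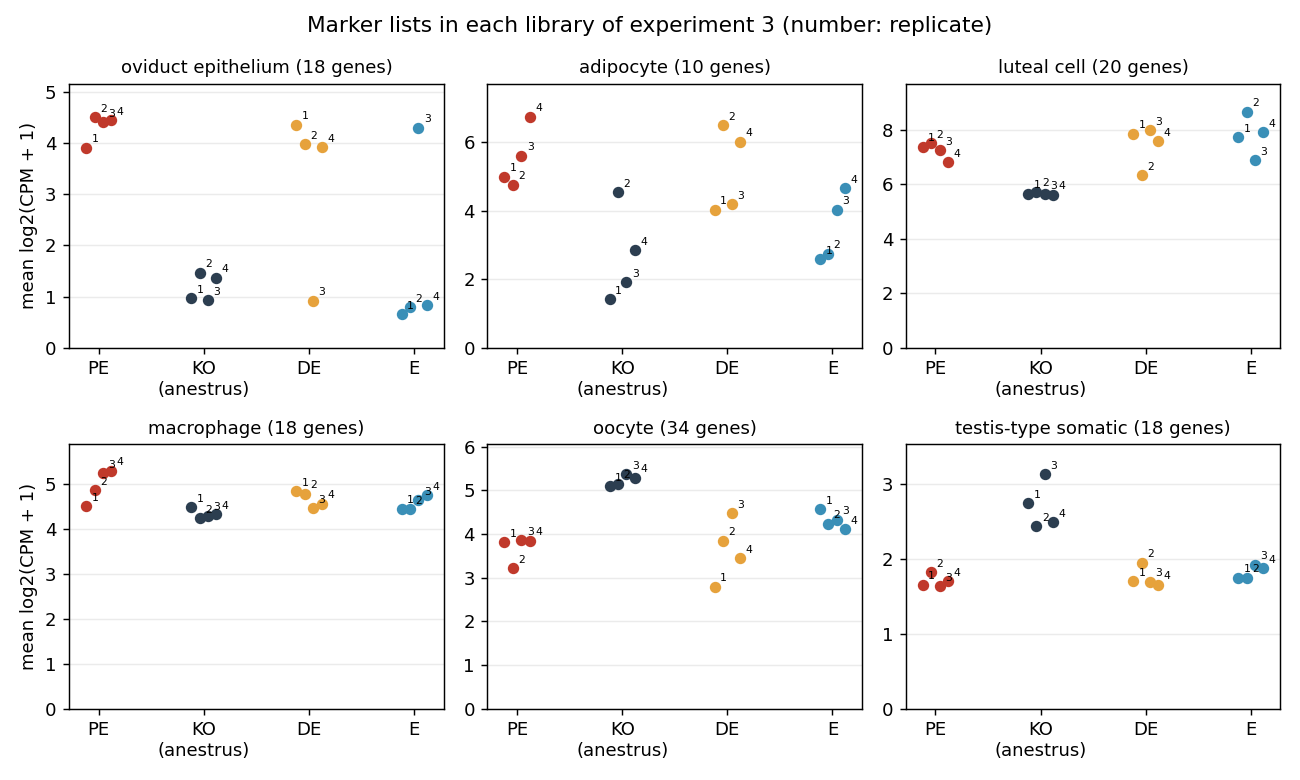
Index of 6 marker lists, as mean log2(CPM + 1), in each library of the stage experiment; points are libraries, numbered by replicate. The oviduct index is 3.91 to 4.50 in all 4 PE libraries, in DE replicates 1, 2 and 4 and in E replicate 3 it is 3.91 to 4.36, and in the other DE and E libraries and the KO (anestrus) libraries it is 0.66 to 1.47.

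The stage experiment also held 4 libraries each at DE and E, labels that usually stand for diestrus and estrus, and these differed among themselves in oviduct transcripts. The oviduct index was 0.92 in DE replicate 3 and 0.66, 0.80 and 0.83 in E replicates 1, 2 and 4, in the range of the KO (anestrus) libraries or under it. It was 4.30 in E replicate 3. Inhba stood at 348, 366, 1056 and 596 CPM in DE replicates 1 to 4 and 142, 557, 274 and 255 CPM in E replicates 1 to 4, all above the highest KO (anestrus) library. Ptgfr stood at 435, 19.7, 448 and 432 CPM and 154, 991, 72.9 and 488 CPM, and Svs5 at 0.657, 1.78, 2.25 and 0.709 CPM and 1.14, 0.956, 0.706 and 0.278 CPM. In each of the 4 libraries poor in oviduct transcripts, Inhba, Ptgfr and Svs5 thus lay outside the range of the KO (anestrus) libraries, on the same side as at PE. Pgr stood at 78.1, 27, 6 and 184 CPM in the DE libraries and 3.24, 5.35, 38.7 and 3.52 CPM in the E libraries, and the 4 libraries poor in oviduct transcripts held the 4 lowest of these 8 values. At PE every library was rich in oviduct transcripts, so for Pgr the stage and the oviduct transcripts cannot be told apart in these libraries. The same order held for 25 of the 102 named genes, 24 of them higher at PE. Besides Pgr, the 8 increases above and the 4 cilia genes, they were Cd44, Dgat2, Dkk3, Igfbp3, Igfbp4, Ctsb, Krt19, Tshr, Lep, Usp18 and Lmod1, and Avpr1a, which was lower at PE. Dkk3 stood at 207, 212, 83.4 and 133 CPM at DE and 65.8, 80.2, 226 and 102 CPM at E, and Cd44 at 59.4, 45.4, 21.8 and 57.8 CPM and 19.2, 18.2, 54.4 and 41 CPM. Star, Cyp11a1 and Tcf21 had the opposite order, with their 4 highest values in the 4 libraries poor in oviduct transcripts. Of those 4 libraries 3 are at E, so stage and oviduct transcripts are partly confounded here too.

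No gene passed the threshold between PE and DE with edgeR (0 of 16944, 0.0%), where 407 had an unadjusted p under 0.05; DESeq2 and limma voom also called none. Between PE and E edgeR called none either (0.0%), where 3170 had an unadjusted p under 0.05 and the smallest adjusted p was 0.12. There DESeq2 called 363 and limma voom 2489, and edgeR called 1847 without E replicate 3, 279 without PE replicate 2 and 1 without PE replicate 4. These tests ask whether PE minus KO (anestrus) differs from DE or E minus KO (anestrus), which share the KO (anestrus) libraries. Thus no named gene was shown by edgeR to stand at another level at PE than at DE or E. Inhba was at 799 ± 862 CPM at PE, 592 ± 329.7 CPM at DE and 307 ± 177 CPM at E (SD, n = 4 each), and Amh at 64.5 ± 2.77, 96 ± 52.4 and 119.6 ± 31.6 CPM.

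Experiments 1 and 2 of the series compared ovaries with and without FSH in other libraries. Experiment 1 held 3 libraries labelled wild type (WT), 3 labelled Fshb(-/-) and 3 titled Het, for heterozygote. Experiment 2 held 4 labelled Fshb(-/-) and 4 of the same genotype with the HFSHB transgene, called the rescue here. The Het libraries were part of the fit of experiment 1 but not of its contrast. Without them the contrast called 1873 genes, against 1355 with them. WT against Fshb(-/-) called 1355 of 17223 genes (7.87%), 575 higher in WT (3.34%) and 780 lower (4.53%), with 456 to 597 on leaving out any library of experiment 1 other than WT replicate 3 (1031), and the rescue against Fshb(-/-) called 5390 of 16871 (31.9%). Of the genes tested in both, 904 were called the same way at PE and in experiment 1, which is 17.2% of the PE calls and 68.7% of the experiment 1 calls, and 1 was called in opposite directions. With experiment 2, 2506 were called the same way, 47.4% of the PE calls and 47.2% of the rescue calls, and 74 in opposite directions. Across genes, which are not independent replicates, the log2 fold changes had Pearson's r of 0.51 and Spearman's rho of 0.49 with experiment 1, and 0.44 and 0.49 with experiment 2. In all 3 comparisons, which share no library, 799 of 15929 genes were called the same way (5.02%), 315 higher (1.98%) and 484 lower (3.04%); 323 to 411 were left without WT replicate 1 or 2 or any Fshb(-/-) replicate of experiment 1.

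**Figure D4:**
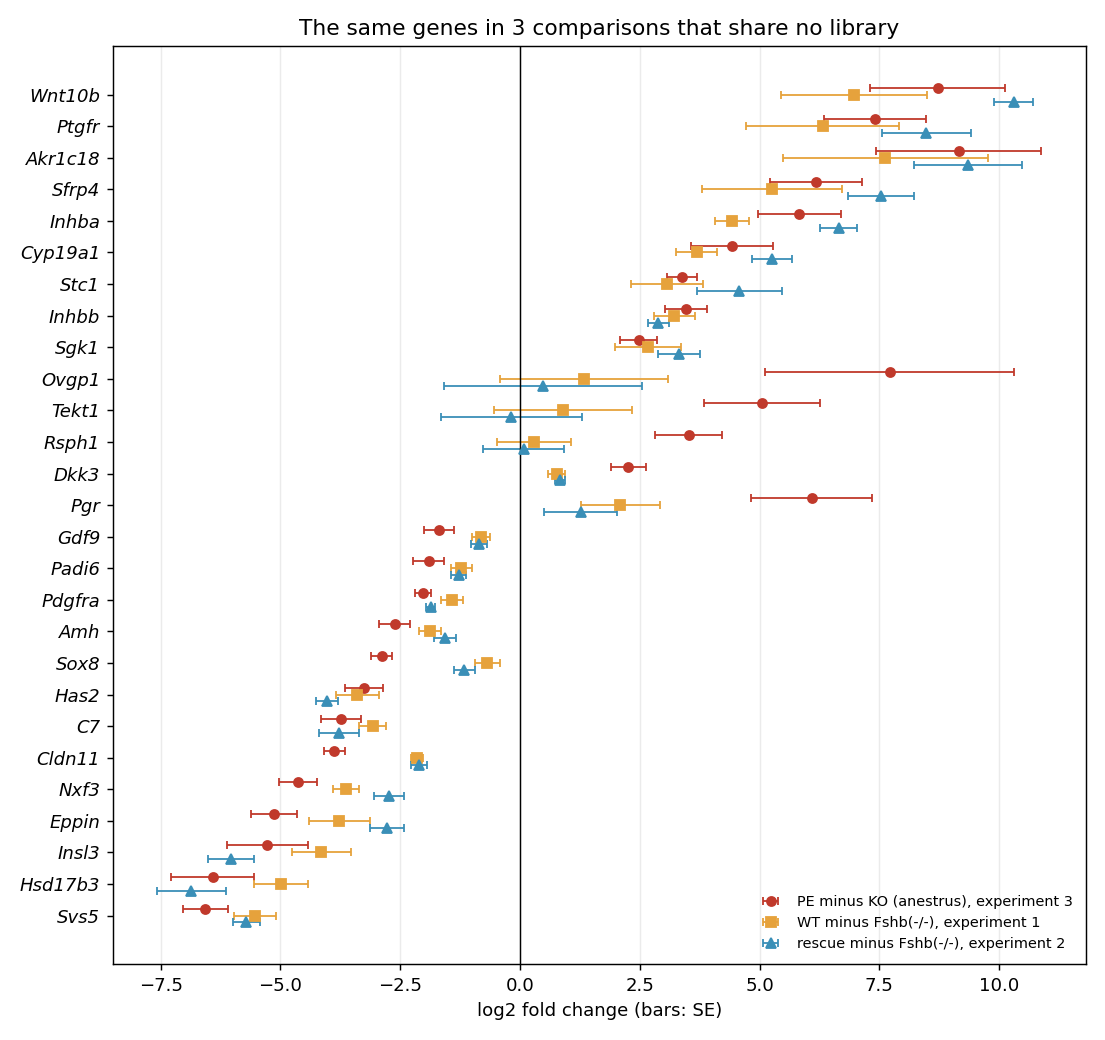
Log2 fold change with its SE for 27 named genes in PE minus KO (anestrus), in WT minus Fshb(-/-) of experiment 1 and in the rescue minus Fshb(-/-) of experiment 2. The points of Inhba and Svs5 lie far on the same side of 0 in all 3, while those of Ovgp1, Tekt1 and Rsph1 lie far from 0 at PE and near it in experiments 1 and 2.

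Of the 30 granulosa genes 8 were called the same way in all 3 comparisons, and the list's median log2 fold change was -0.30 at PE, 0.18 in experiment 1 and 0.09 in experiment 2. Inhba changed by 5.83 ± 0.87 at PE, 4.42 ± 0.35 in experiment 1 and 6.65 ± 0.38 in experiment 2 (log2, SE), and was called in each. Cyp19a1 changed by 4.43 ± 0.85, 3.69 ± 0.43 and 5.26 ± 0.41, and Amh by -2.62 ± 0.33, -1.88 ± 0.23 and -1.56 ± 0.23, also called in each. Lhcgr was at -0.29, 0.43 and 1.35, called in experiment 2 alone (adjusted p = 0.038). Of the 20 luteal genes 11, 5 and 15 were higher and none lower, with medians of 0.83, 1.20 and 1.44, and 3 were called the same way in each. Ptgfr had 7.41 ± 1.07, 6.32 ± 1.60 (adjusted p = 0.054, not called) and 8.48 ± 0.92. Of the 34 oocyte genes, 34 were lower at PE, 23 in experiment 1 and 32 in experiment 2, with medians of -1.69, -0.89 and -0.92; 23 were lower in all 3. Of the renin-angiotensin genes Ace, Agt and Enpep were called the same way in all 3.

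Among the 12 largest decreases at PE 10 were called lower in all 3 comparisons; the 2 others, Ptgds (-1.90, adjusted p = 0.23) and Col6a5 (-2.05, adjusted p = 0.053), missed the threshold in experiment 1. Among the 12 largest increases at PE, Wnt10b was the 1 gene called higher in all 3, and Akr1c18, Onecut2 and Ptgfr were called in experiment 2 but missed the threshold in experiment 1 (adjusted p = 0.073, 0.056 and 0.054). Another 6, which were Dcpp3, Entpd3, Ugt1a1, Cyp26a1, Serpina1e and Gcnt3, had too few counts to be tested in experiment 1 or 2. Ovgp1 was at 1.34 ± 1.76 and 0.48 ± 2.07 there and A2ml1 at 3.20 ± 2.54 and 0.89 ± 2.16 (log2, SE), with no call. None of the 10 tested oviduct genes was called in experiment 1 or in experiment 2. The oviduct index ran from 0.79 to 1.15 in WT and from 0.90 to 1.04 in Fshb(-/-) of experiment 1, and from 0.64 to 2.73 in the rescue and from 0.80 to 2.87 in Fshb(-/-) of experiment 2. Pgr was not called in either, at 2.10 ± 0.83 (SE), adjusted p = 0.16 and 1.27 ± 0.77 (SE), adjusted p = 0.25. The interferon list had 11 of 20 genes higher at PE, 0 in experiment 1 and 15 in experiment 2. Of the 12 ovarian surface epithelium genes, 6 were higher at PE and none was called in experiment 1. In experiment 2, 1 of them was higher and 9 were lower in the rescue (median log2 fold change -0.92).

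Whether PE minus KO (anestrus) differs from WT minus Fshb(-/-) of experiment 1 was tested in a fit over all groups of both experiments, with Het, DE and E included. The test of that difference called 2 of 18288 genes (0.0109%), Sox8 and Cldn11, both with the larger decrease at PE. Sox8 was at 1.1 ± 0.197 CPM at PE and 8.18 ± 0.401 CPM in KO (anestrus) (SD, n = 4 each), against 1.91 ± 0.345 CPM in WT and 3.08 ± 0.694 CPM in Fshb(-/-) of experiment 1 (SD, n = 3 each). The difference of the log2 fold changes was -2.20 ± 0.31 (SE), adjusted p = 0.011. Cldn11 was at 9.92 ± 2.51 and 146 ± 10.5 CPM against 14.8 ± 1.49 and 66 ± 8.53 CPM, with a difference of -1.72 ± 0.26 (SE), adjusted p = 0.017. For both genes the KO (anestrus) libraries stood above the Fshb(-/-) libraries of experiment 1, and the experiment and the group cannot be told apart in that contrast. The count was 0 without WT replicate 1 or Fshb(-/-) replicate 1 of experiment 1, and 1 without WT replicate 2 of experiment 1, KO (anestrus) replicate 2 or 4, or PE replicate 2. DESeq2 called 485 genes and limma voom 2387, and edgeR called 1580 when only the 4 groups of the contrast were fitted.

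For the lists of other cells, RNA quality and stress, counts of calls are read against the 17.5% of all genes that were higher and the 16.3% that were lower. Several of these lists are small. The medians of the erythrocyte (1.28), skeletal muscle (1.05), neutrophil (0.57) and lymphocyte (0.53) lists lay above that of all genes. The summed level of the erythrocyte list was 133 to 424 CPM at PE and 87.2 to 126 CPM in KO (anestrus). All 5 of its genes were higher with DESeq2, with limma voom or with only the 2 groups fitted, 1 with the replicate block and 0 without a filter. None of the 13 transcripts of the mitochondrial genome and none of the 3 tested skeletal muscle genes was called. Among blood cells, Ptprc was higher and Ms4a1 lower of 10 lymphocyte genes (both on edgeR's test; Ms4a1 lost its call whichever library was left out, and 2 genes were higher without PE replicate 2 or any 1 KO (anestrus) library), Ltf was higher of 6 neutrophil genes, and Alas2 and Hbb-bt were higher of 5 erythrocyte genes; no neutrophil gene was called without KO (anestrus) replicate 1, 2 or 3 and 2 were without PE replicate 1, while no erythrocyte gene was called without KO (anestrus) replicate 1, 2 or 4 or PE replicate 3 or 4, 1 was without KO (anestrus) replicate 3 and 4 were without PE replicate 2. Without KO (anestrus) replicate 1, 1 skeletal muscle gene was higher. Of 19 clock genes 3 were lower, among them Hlf and Nfil3, with 0 lower without KO (anestrus) replicate 1 or 4 or PE replicate 1 and 1 without KO (anestrus) replicate 2 or PE replicate 2 or 3. Immediate early genes (2 of 20 higher, Ier3 and Fosl2, and Myc lower), heat shock genes (3 of 12 higher, Hspb1, Cryab and Hspa1a, and Dnajb1 lower) and genes of oxidant defence (4 of 22 higher, Cat, Gss, Gsta2 and Gpx1, and 5 lower, Gpx3, Gsta3, Gclm, Gstm1 and Gstm2) had calls in both directions. Without single libraries, 1 immediate early gene was higher (KO (anestrus) replicate 2 or 3) and 0 lower (KO (anestrus) replicate 1, PE replicate 1 or 3), 1 heat shock gene was higher (KO (anestrus) replicate 1, PE replicate 4) and 0 lower (KO (anestrus) replicate 1 or 4, PE replicate 1, 2 or 3), and 2 oxidant defence genes were higher (PE replicate 4) and 3 lower (KO (anestrus) replicate 1, PE replicate 1 or 4), the library left out in brackets. Genes given by name without a value here were named after their calls were seen.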

How the data were processed

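The authors deposited expected counts per gene (estimates that need not be whole) in 1 table of 54347 identifiers and 33 libraries. Salmon, DESeq2 and the build GRCm38 are named, per the submitters' processing notes; of versions, settings, annotation and strand use, nothing is given in the sources used here. In the libraries compared 10.5% to 11.7% of values were not whole, and all were rounded. Reads shared by near-identical or overlapping genes are divided by the quantifier. Per the labels' protocols, poly(A) RNA of the stage experiment was made into libraries with a KAPA kit and sequenced as paired ends on a NovaSeq instrument.

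Symbols and coordinates come from GENCODE M21 (53307 identifiers matched with version, 54094 without, 253 with no symbol). Experiment 3 (16 libraries) was fitted with edgeR 4.0.16 in R 4.3.3 (TMM, filterByExpr by group, robust glmQLFit, glmQLFTest, Benjamini-Hochberg over all genes tested, threshold 0.05), and experiments 1 and 2 apart in the same way; the SE is the log2 fold change divided by the root of F. Every pair of PE and every pair of KO (anestrus) libraries differed by more than counting noise (chi-square over its degrees of freedom 6.89 to 36.6). Intervals cover counting error only. The procedure was tested on simulated data in which every gene had the same spread. Genes in these libraries differed in spread, so that test does not show how the procedure performs on them.

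Named genes are Fshb, a panel of 12, the 12 largest changes in each direction (called, mean over the 8 libraries reaching 5 CPM, groups that do not overlap, no predicted, RIKEN or pseudogene symbol) and up to 4 members with the smallest p from each of 33 lists. Of the genes so named, 1 is not reported here. Members and lists were chosen with earlier results of these data known. Alternatives were DESeq2 1.42.0, limma 3.58.1 (voom with sample quality weights), other size factors and filters, fewer groups, a replicate block and each replicate left out.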

Additional observations from a re-analysis of the deposited data

Results flagged for a closer look

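In 204 groups of 4 libraries (each named gene at PE and in KO (anestrus)), 18 held a library whose gap to its nearest neighbour exceeded Dixon's 95% critical value for 4 values, as a share of the group's range; chance alone gives about 5% of groups. Of these, 11 were at PE and 7 in KO (anestrus), over 17 genes. PE replicate 2 was highest for Star (960 CPM, against 133 to 178 in the others), A2ml1 (1760 against 439 to 542), Dcpp3 (131 against 7.02 to 27.5) and Vegfa (98.1 against 58.6 to 62.7), and lowest for Gdf9 (34.8 against 55 to 58). PE replicate 4 was lowest for Lhcgr (56.2 against 290 to 314), Cd44 (35.1 against 53 to 56.2) and Aplnr (25.3 against 42.7 to 44.5), and highest for Dgat2 (178 against 36.1 to 57.6). PE replicate 1 was highest for Sfrp4 (701 against 224 to 293) and PE replicate 3 for Usp18 (14.3 against 9.64 to 10.2).

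KO (anestrus) replicate 2 was highest for Plin4 (32.9 CPM, against 4.91 to 9.68 in the others), Dgat2 (29.3 against 3.85 to 8.10), Tshr (3.99 against 0.302 to 0.838) and Msln (14.1 against 9.84 to 10.5); it also had the highest adipocyte and oviduct indices of its group, 4.55 and 1.47. KO (anestrus) replicate 3 was highest for Pdgfra (997 against 770 to 804), and KO (anestrus) replicate 4 for Serpina1e (1.95 against 0 to 0.0834) and Gcnt3 (0.931 against 0 to 0.0755).

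The log2 fold change of PE minus KO (anestrus) differed from that of WT minus Fshb(-/-) in experiment 1 for Sox8 (-2.88 against -0.68), by -2.20 on the log2 scale (SE 0.31, adjusted p = 0.0105), and for Cldn11 (-3.87 against -2.15), by -1.72 (SE 0.26, adjusted p = 0.0175), in edgeR's test of the difference. All 4 PE libraries were below all 4 KO (anestrus) libraries for both genes.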

How the results depend on the processing

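The number of genes that differed between PE and KO (anestrus), 5724, was 4674 without a filter, 5391 at a mean CPM of at least 1, 5644 with median-of-ratios size factors, 6406 with DESeq2, 6665 when only the 2 groups were fitted, 7928 with limma voom, 6443 without DE replicate 3 and E replicate 3, and 3930 to 5000 when single replicates were left out. No named gene that was called reversed its direction in any alternative. Among genes not called, direction could change when single replicates were left out. Star went from 0.63 to as low as -0.59, Inha from 0.08 to as low as -0.11 and Lhcgr from -0.29 to as high as 0.04 (log2 fold changes). In PE minus KO (anestrus), 780 of 816 refits of the 102 named genes without 1 replicate kept their side of the threshold, and 36, from 8 genes, lost the call; of 816 values under the other alternatives 802 kept it, 13 lost it and 1 gained it. Another scaling moved the median log2 fold change of all genes by at most 0.02. PE against DE stayed at 0 under all alternatives run.

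PE against E (0 genes) gave 363 with DESeq2 and 2489 with limma voom, and 0 to 1847 when single replicates were left out (1847 without E replicate 3). WT against Fshb(-/-) in experiment 1 (1355) gave 2380 with DESeq2 and 3589 with limma voom, and 456 to 1031 without single replicates. The test of the difference between PE minus KO (anestrus) and that contrast (2) gave 485 with DESeq2, 2387 with limma voom, 1580 with only the 4 groups and 1 without a filter, and 0 to 3 without single replicates. Genes called the same way in all 3 comparisons (799) numbered 1320 with DESeq2 and 1735 with limma voom, and 323 to 805 without single replicates. The cause was not tested.

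Replicate numbers are shared by the groups, and the labels do not say what they stand for. Same-numbered PE and KO (anestrus) libraries showed little common deviation (r from -0.06 to 0.05 across genes). Whether they shared a day, litter or batch was not tested. With the replicate number as a block, PE against KO (anestrus) gave 4878 genes, the test of the difference between experiments 0, and the count common to all 3 comparisons 550. Counts of 10.1 M to 14.3 M per library limit genes near 1 CPM, where 1 library can decide a call.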

Other observations

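Counts of Fshb set the WT libraries of experiment 1 apart from the others of that experiment, but varied widely in the stage experiment. In experiment 1 they were 1, 1 and 0 in the 3 WT libraries, 43, 60 and 106 in the 3 Het libraries and 68, 79 and 82 in the 3 Fshb(-/-) libraries. In experiment 2 they were 169, 184, 176 and 119 in Fshb(-/-) replicates 1 to 4 and 221, 270, 370 and 431 in rescue replicates 1 to 4. In the stage experiment, where every genotype label reads WT, they were 86, 70, 198 and 60 in DE replicates 1 to 4 and 50, 170, 0 and 60 in E replicates 1 to 4, beside the 0 to 51 at PE and 90 to 114 in KO (anestrus) given above.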
